A study of Rattus norvegicus with 4 samples.

Results

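The nuclear genes for the subunits of oxidative phosphorylation were followed in rat liver. They were found by symbol in the deposited count table: every row whose symbol starts with Ndufa, Ndufb, Ndufc, Ndufs, Ndufv, Uqcr, Atp5, Cox4, Cox5, Cox6, Cox7 or Cox8, plus Sdha, Sdhb, Sdhc, Sdhd, Cyc1 and Cycs. Assembly factors named Ndufaf were left out. The rule took 90 of 32545 rows, with 84 different symbols. Complex I held 34 of the rows, complex II 4, complex III 9, cytochrome c 2, complex IV 22 and complex V 19. Of these rows, 70 had enough counts to be tested, and the other 20 are accounted for below. The rule reads the symbols alone, though it was chosen with earlier results of these data known. Of the tested rows, 2 carry a matching name without being a structural subunit: Cox7a2l, a factor for joining complexes III and IV, and Atp5sl, today named Dmac2, which helps to assemble the membrane arm of complex I.

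Messenger RNA from rat liver was sequenced in 4 libraries. Forced activity, in which animals are kept moving, was given to both groups: 2 libraries came from forced activity alone, the control, and 2 came from forced activity combined with chronic sleep restriction. The comparison asks what restricted sleep adds in the liver once activity is shared. Strain, age, sex and the length of the treatment are not given in the sources used here, nor whether the libraries of a group came from separate animals, so every test below measures the spread between these libraries.

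Oxidative phosphorylation is the last stage of aerobic energy capture. Complexes I and II feed electrons from NADH and succinate to ubiquinone, complex III passes them to cytochrome c, and complex IV hands them to oxygen. Complexes I, III and IV pump protons across the inner mitochondrial membrane, and complex V, the ATP synthase, makes ATP as the protons return. Complex II is encoded in the nucleus alone, whereas the other complexes join nuclear subunits with a few made from mitochondrial DNA. Hepatocytes, which are rich in mitochondria, use this ATP for glucose and urea synthesis and for protein secretion.

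The counts in each library summed to between 508203 and 520276, and 4986 genes were tested. Both replicate 1 libraries listed more genes above 0 (14008 and 14105) than the replicate 2 libraries (11943 for forced activity and 10952 for sleep restriction), so replicate number coincides with the number of genes listed. The columns were not made alike, since sleep restriction 2 holds 1 value that is not whole and the others 10854 to 12995, and what this does to rare genes was not tested. Albumin, the main plasma protein made by hepatocytes, took 11.6% to 13.6% of the counts, and all 7 hepatocyte markers were above 0. Summed marker levels in CPM (counts scaled to 1e+06 per library) for sinusoidal endothelium were 119 and 350 with forced activity alone, against 336 and 188 with sleep restriction. For macrophages they were 561 and 732 against 876 and 601, and for red cells 890 and 1848 against 1183 and 726. No marker of these cell types was called, and their part in the values below was not tested. Of 8 listed striated muscle markers, 6 (Acta1, Ckm, Mb, Myh6, Myh7 and Myl1) were at 0 in every library. In whole liver, fewer cells of a type and less RNA per cell cannot be told apart.

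The promoters of complex II are shown first, because all its subunits are nuclear and its 4 genes are described together below. The stretches are the 120 bases before each RefSeq start in the rat build GRCr8, read 5′ to 3′ on the gene's strand. Capitals mark matches, on either strand, to GCGCANGCG, the core letters bound by nuclear respiratory factor 1 (NRF1), CCGGAAG, letters bound by ETS factors such as GABP, or AAGATGGC, letters bound by YY1. These factors are known regulators of respiratory chain genes.
Sdha, flavoprotein, chr1:30764433-30764552, plus strand: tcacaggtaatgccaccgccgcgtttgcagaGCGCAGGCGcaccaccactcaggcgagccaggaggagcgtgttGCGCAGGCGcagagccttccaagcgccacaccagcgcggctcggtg
Sdhb, iron-sulfur protein, chr5:158547814-158547933, plus strand: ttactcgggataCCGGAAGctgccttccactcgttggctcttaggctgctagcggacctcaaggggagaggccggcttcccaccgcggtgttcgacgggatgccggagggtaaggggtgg
Sdhc, membrane anchor, chr13:86098026-86098145, minus strand: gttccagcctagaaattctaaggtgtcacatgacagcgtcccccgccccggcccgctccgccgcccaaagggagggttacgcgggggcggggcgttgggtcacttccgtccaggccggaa
Sdhd, membrane anchor, chr8:59850642-59850761, minus strand: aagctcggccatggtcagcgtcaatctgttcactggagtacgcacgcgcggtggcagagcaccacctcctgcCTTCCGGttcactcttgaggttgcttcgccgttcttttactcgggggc
Sdha holds the NRF1 letters at 2 places in its stretch, Sdhb and Sdhd hold the ETS letters at 1 place each, and none of the 3 motifs is within the Sdhc stretch.

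RefSeq gave a promoter, from 250 bases before to 50 bases after the start, for 61 of the 70 tested genes. NRF1 letters were in 16 of these (26.2%) and in 6.26% of all 27457 promoters of the same length. ETS letters were in 19 (31.1%, against 9.22% of all), and YY1 letters in 13 (21.3%, against 3.44%). The SP1 letters GGGCGG were in 34.4% against 34.9%, and the NF-Y letters CCAAT in 32.8% against 37.7%. Protein-coding promoters alone held the first 3 motifs at 7.62%, 10.7% and 3.67%. NRF1 or ETS letters stood in 32 of the 61 promoters (52.5%, against 14.2% of all promoters), and the sets overlap where a promoter has both. The 32 genes with these letters had a median log2 change of -0.06, 21 of them negative, and the 29 without had -0.14, 24 of them negative. A match describes letters, not a bound site.

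No oxidative phosphorylation gene was called different between the groups. The share of all tested genes called at an adjusted p under 0.05 was 0.0201%, which is 1 gene of 4986, RT1-A2, a class I histocompatibility gene outside the set. The smallest adjusted p among the 70 tested members was 0.999 (edgeR's quasi-likelihood test with Benjamini-Hochberg adjustment). At an unadjusted p under 0.05 there was 1 member, Ndufa2, where 4.19% of all tested genes passed. DESeq2 and limma-voom called 0 members too. The log2 change of sleep restriction over forced activity was negative for 51 of the 70 (72.9%), where 47.6% of all tested genes were negative. Its median was -0.11, the middle 50% of members lay between -0.27 and 0.02, and the median over all tested genes was 0.00. The median standard error (SE) was 0.23, and 45 members had a change smaller than their own SE. The 95% intervals of 69 members included 0, and those of 66 lay wholly between a log2 change of -1 and 1.

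**Figure D1:**
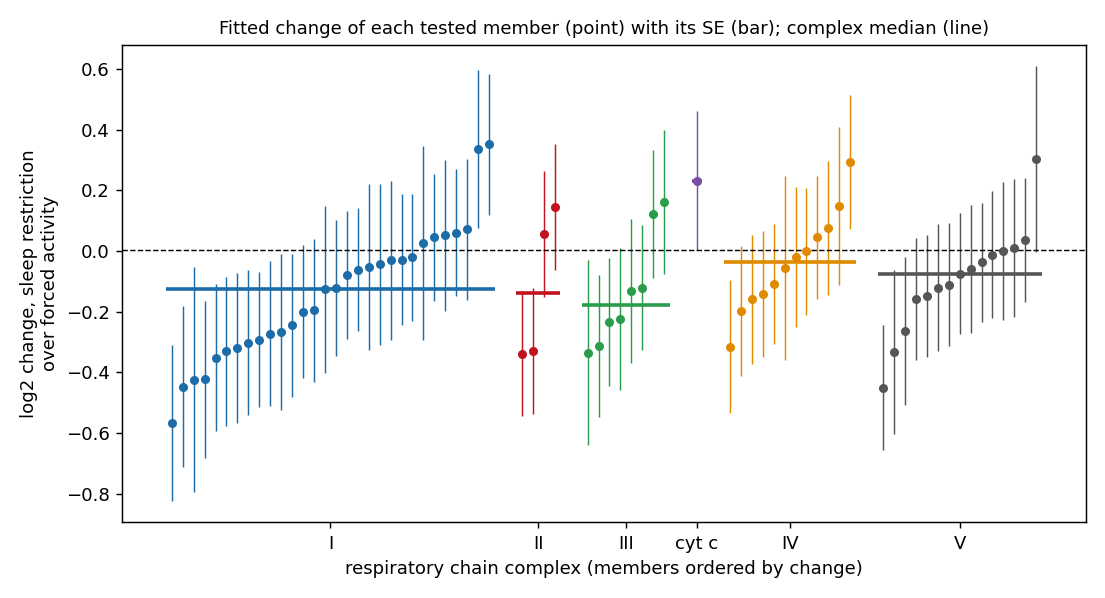
Each point is a tested oxidative phosphorylation gene, ordered within its complex, with its fitted log2 change of sleep restriction over forced activity on the vertical axis and a bar of 1 SE. Coloured lines are complex medians and the dashed line is the median of all 4986 tested genes. Of the 70 points, 51 lie below 0, and most bars reach across it.

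Groups that do not overlap, with both sleep restriction libraries below both forced activity libraries, were found for 22 members (31.4%), where 15.3% of all tested genes had this order. The opposite order was found for 2 members (2.86%), where 17.2% of all had it. Within both replicate numbers the value was lower under sleep restriction for 37 members (52.9%, against 27.4% of all tested genes) and higher for 3 (4.29%, against 28.6%). The other 30 differed in sign between the numbers. In replicate 1, 62 of the 70 were lower under sleep restriction, with a median difference of -0.14. In replicate 2, 42 were lower, with a median of -0.09. Among all 4986 tested genes, 2462 were lower in replicate 1 and 2464 in replicate 2. Of the 926 tested genes with genomic intervals no longer than the members' median, 617 and 597 were lower.

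In their summed level, the libraries of a group differed from each other more than the group means did. Summed over the 70 genes, the level was 10635 and 9294 CPM with forced activity alone, a mean of 9965 ± 948 (SD, n = 2). It was 9809.9 and 9049.7 CPM with sleep restriction, a mean of 9429.8 ± 538 (SD, n = 2), so the sums of the groups overlap. Forced activity 1 was the highest library for 45 members, where 22.6% of all tested genes had their highest value there. Sleep restriction 2 was the lowest for 35, where 30.9% of all tested genes had their lowest value in that library. The same library was also the highest for 1607 of all 4986 tested genes and for 10 of the 70 members. Without forced activity 1 the members' median moved to -0.05 with 39 negative, and without sleep restriction 2 to -0.05 with 43 negative. Without forced activity 2 it was -0.19 with 59 negative, and without sleep restriction 1 it was -0.18 with 53 negative. The sign of the median was the same in all 4 cases, and its size rested on which library was left out.

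**Figure D2:**
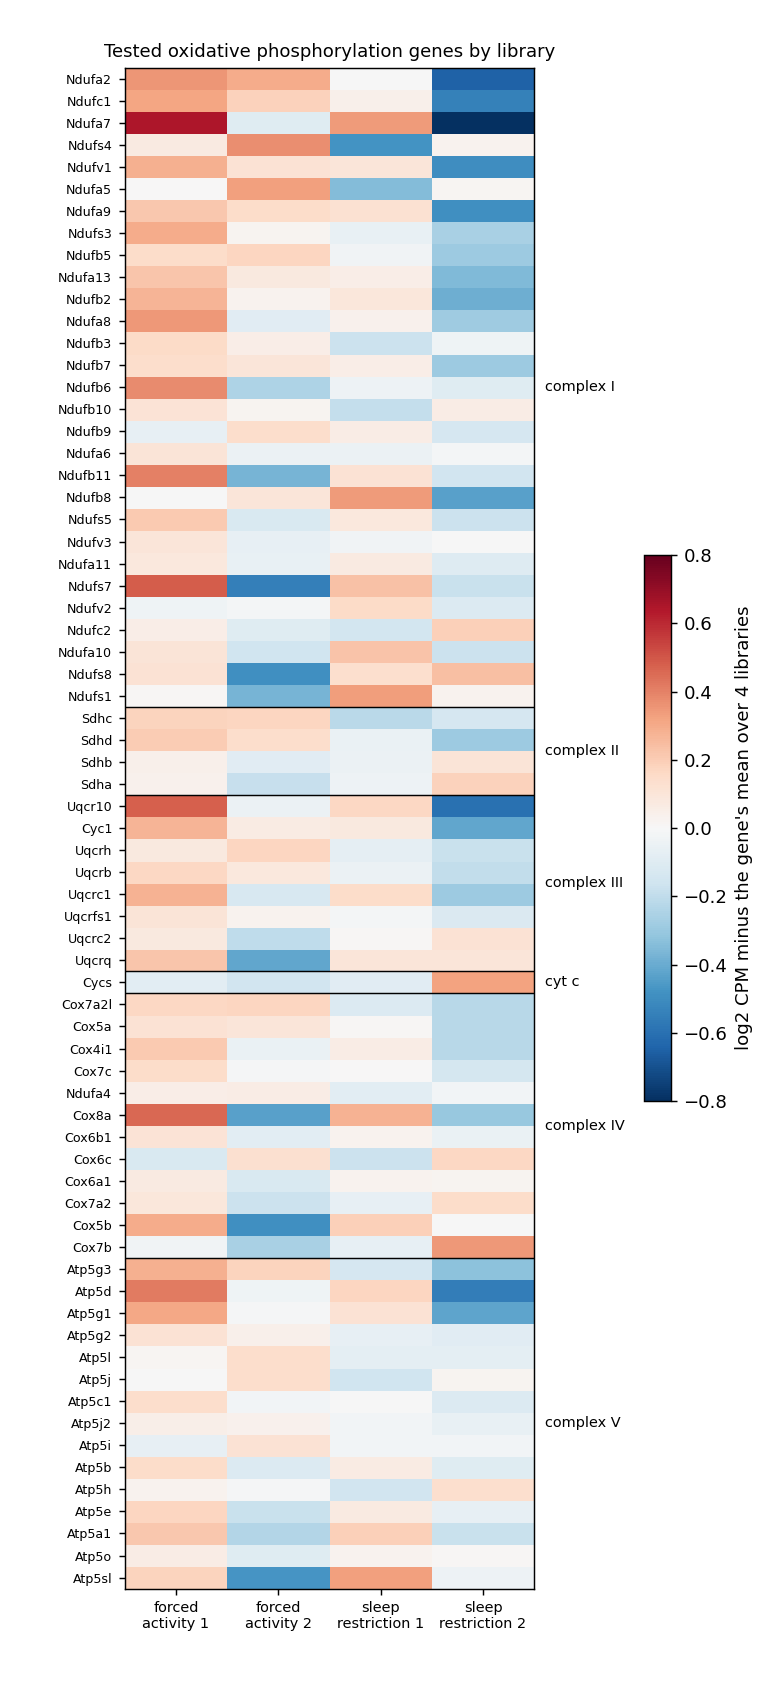
Rows are 69 of the 70 tested genes grouped by complex and columns are the 4 libraries; colour is log2 CPM minus the gene's own mean over the libraries, red above and blue below. Forced activity 1 is the highest library in 44 rows and sleep restriction 2 the lowest in 35.

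**Figure D3:**
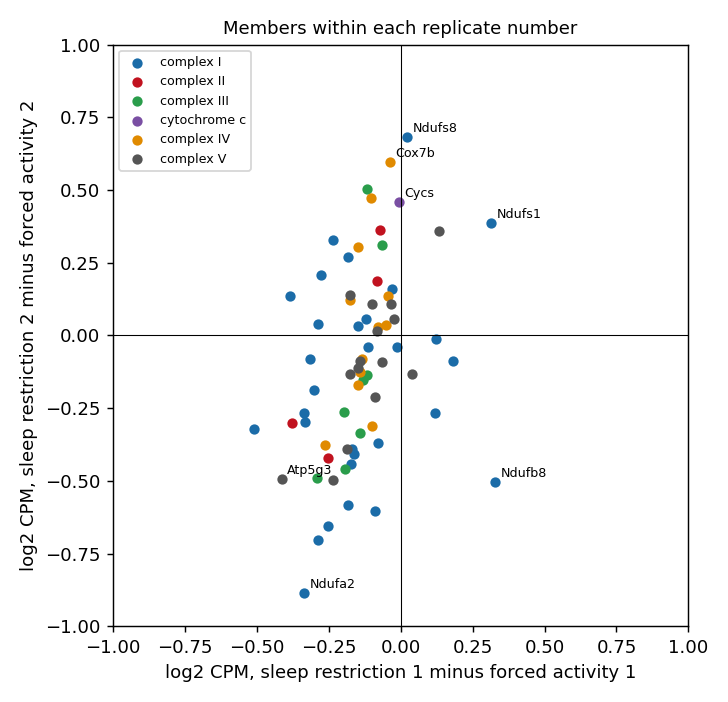
Each point is a tested gene, coloured by complex, with the log2 CPM difference of sleep restriction from forced activity in replicate 1 on the horizontal axis and in replicate 2 on the vertical axis. The lower left quadrant holds 37 genes and the upper right quadrant 3.

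Length of the genomic interval moved with the change over all genes. Across the 4986 tested genes, which are not independent replicates, the Spearman correlation of log2 change with interval length was 0.26, and across the 70 members it was 0.02. The members' intervals are short, with a median of 6.88 kb against 22.04 kb over all tested genes. The 926 tested genes with intervals no longer than the members' median had a median log2 change of -0.12, and 67.6% of them were negative, which is close to the members' own -0.11 and 72.9%. Of these 926, 27.2% had groups that do not overlap in the lower direction and 6.37% in the higher. After a running median along interval length was subtracted, the members' median was -0.01 and 37 of 70 were negative. By complex the subtracted medians were -0.05 for I, -0.13 for II, -0.11 for III, 0.02 for IV and -0.01 for V. The part of interval length in the members' values was not tested.

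**Figure D4:**
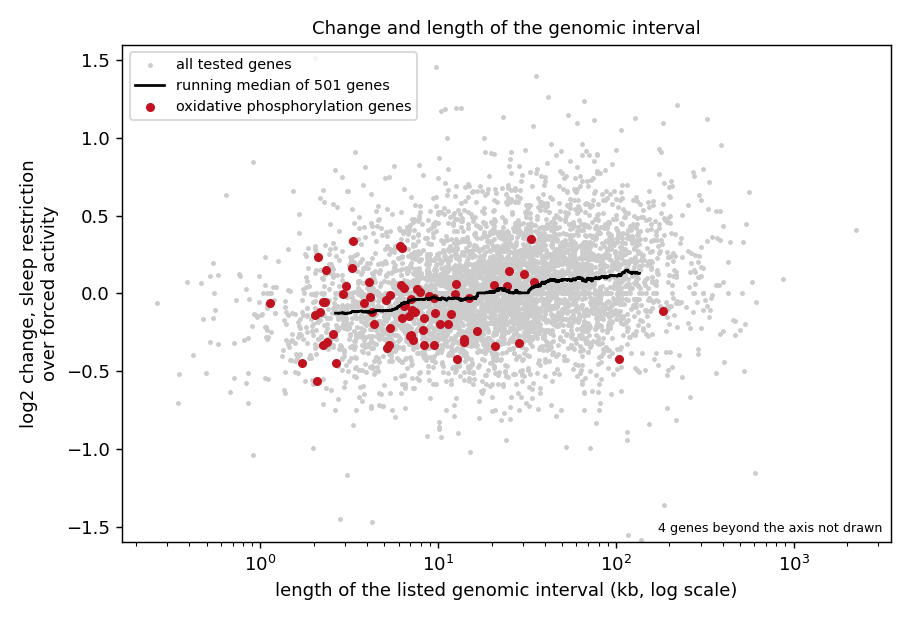
Grey points are all tested genes and red points the oxidative phosphorylation genes, with interval length in kb on a log horizontal axis and log2 change of sleep restriction over forced activity on the vertical axis. The black line, a running median along length, lies below 0 at short intervals, where most red points are; 4 genes lie beyond the axis.

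Complex I takes electrons from NADH, and 30 of its 34 rows were tested, 23 with a negative change and a median of -0.12. No complex I gene was called, and 10 of the 30 (33.3%) had non-overlapping groups in the lower direction, against 15.3% of all tested genes and 27.2% of those with short intervals. In the higher direction there were 2 (6.67%), against 17.2% and 6.37%. The 9 Ndufb genes, accessory subunits of the proton-pumping membrane arm, were all negative, from -0.29 to -0.04 with a median of -0.13. Negative changes made up 47.6% of all tested genes and 67.6% of the 926 with short intervals. Only 4 of the 9 Ndufb genes (44.4%) were lower within both replicate numbers, and 5 were mixed. Lower within both were 27.4% of all tested genes and 44.6% of those with short intervals. Of the 9 Ndufa genes, accessory subunits spread over the complex, 8 were negative, with a median of -0.27. The 5 other accessory genes, with Ndufc, Ndufs or Ndufv symbols, had a median of -0.03, from -0.45 to 0.05, and 4 were negative. The catalytic core was mixed in sign: the 3 tested genes of the NADH end (Ndufs1, Ndufv1 and Ndufv2) had a median of 0.05, from -0.35 to 0.35, and the 4 tested of the quinone end had 0.04, from -0.30 to 0.34. The difference between these classes was not tested.

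Ndufa2, an accessory subunit of the NADH-oxidising arm, is at chr18:29585671-29587760 in the files' coordinates (rn6). Pairs of values are given here as replicate 1 and replicate 2, with forced activity before sleep restriction. Ndufa2 measured 81.5 and 78.6 CPM with forced activity alone and 63.8 and 40.7 CPM under sleep restriction. Its groups do not overlap, and sleep restriction 2 was the lowest library. The Ndufa2 interval overlaps Tmco6 and RefSeq names 4 pseudogenes for it, so reads could be shared with these. The log2 change of Ndufa2 was -0.57, SE 0.26, with a 95% interval of -1.13 to -0.00. It lay between -0.91 and -0.30 when each library was left out in turn. Ndufc1, a small membrane subunit, had 52.7 and 48.1 CPM against 43.6 and 29.1 CPM, again without overlap and with sleep restriction 2 lowest (-0.45, SE 0.27, and -0.23 without that library). Ndufs4, an accessory subunit whose loss causes mitochondrial disease, had 59.9 and 73.7 CPM against 40.9 and 58.2 CPM (log2 change -0.42, SE 0.26). Its lowest library was sleep restriction 1, without which the change was -0.21, and its groups also do not overlap. The margin was thin, with 59.9 CPM in forced activity 1 and 58.2 CPM in sleep restriction 2. Before scaling, these 2 libraries held 29.7 and 30 counts, in the other order.

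The opposite order was seen in Ndufs1 and Ndufs8, both carriers of iron-sulfur clusters on the electron path. Ndufs1, the largest core subunit, had 91.6 and 70.4 CPM with forced activity alone and 115 and 93.1 CPM under sleep restriction (log2 change 0.35, SE 0.23). Ndufs8, next to the ubiquinone site, had 62.2 and 40.9 CPM against 63.2 and 67.9 CPM (log2 change 0.34, SE 0.26). These are the 2 members whose groups do not overlap in the higher direction, both by thin margins. For Ndufs1, forced activity 1 had 91.6 CPM and sleep restriction 2 had 93.1 CPM. For Ndufs8 the margin over forced activity 1 was about 1 CPM. The Ndufs8 interval overlaps Unc93b1, so reads could be shared between them. Leaving out each library gave 0.18 to 0.53 for Ndufs1 and 0.06 to 0.64 for Ndufs8.

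Ndufa6 and Ndufb9, accessory subunits, are among the complex I genes with the most counts, and their groups were close. Ndufa6 had 187 and 169 CPM against 169 and 173 CPM (log2 change -0.06, SE 0.20). Ndufb9 had 136 and 157 CPM against 149 and 129.97 CPM (log2 change -0.08, SE 0.21). In Ndufb9 the values of the groups interleave, and in Ndufa6 sleep restriction 1 is just below forced activity 2.

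Complex II, succinate dehydrogenase, links the citric acid cycle to the respiratory chain, and all 4 genes were tested with none called. Over all 4 libraries the fitted changes were negative for the membrane anchors and positive for the catalytic genes. In replicate 1, however, all 4 genes were lower under sleep restriction, as were 2462 of all 4986 tested genes. Sdhc, at chr13:89498048-89518939, had 152 and 152 CPM with forced activity alone and 116 and 122 CPM under sleep restriction. Sdhd, at chr8:55028125-55037604, had 169.9 and 162 CPM against 142 and 120.3 CPM. For both anchors, which hold the ubiquinone site in the inner membrane, the groups do not overlap and the forced activity libraries lie close together. The log2 changes were -0.34, SE 0.20 and -0.33, SE 0.21, and with each library left out in turn they stayed between -0.38 and -0.31 for Sdhc and between -0.46 and -0.23 for Sdhd.

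Sdha, the flavoprotein that oxidises succinate, had 252 and 216 CPM with forced activity alone and 239 and 279 CPM under sleep restriction (log2 change 0.15, SE 0.21). Sdhb, the iron-sulfur subunit, named after its values were seen because it completes the complex, had 129.97 and 119 CPM against 123 and 136 CPM (log2 change 0.06, SE 0.21). In both genes the groups overlap and sleep restriction 2 is the highest library. Within replicate 1 the log2 differences were -0.07 for Sdha and -0.08 for Sdhb, and within replicate 2 they were 0.36 and 0.19. With each library left out in turn the change of Sdha lay between 0.02, without sleep restriction 2, and 0.26, and 3 of the 4 complex II genes were negative without sleep restriction 2 or without forced activity 2. The median of the anchors was -0.33 and that of the catalytic pair 0.10. Within replicate 1 these medians were -0.31 and -0.08, and within replicate 2 they were -0.36 and 0.27. The catalytic pair was thus positive within replicate 2 only. The contrast between anchors and catalytic pair was noticed in these data and was not tested. The 95% intervals of all 4 genes included 0.

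**Figure D5:**
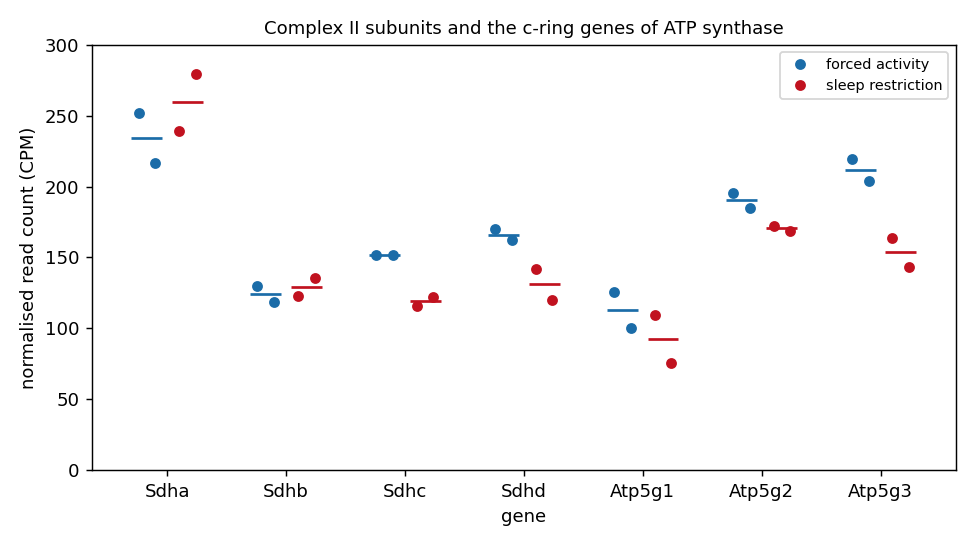
Normalised read count in CPM (vertical axis, from 0) for the 4 complex II genes and the 3 c-ring genes of ATP synthase; points are libraries, blue for forced activity and red for sleep restriction, and lines are means of 2. Sdhc, Sdhd, Atp5g2 and Atp5g3 have groups that do not overlap, whereas Sdha, Sdhb and Atp5g1 overlap. Groups without overlap in the lower direction were found for 15.3% of all tested genes and 27.2% of the 926 with short intervals.

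Complex III passes electrons from ubiquinol to cytochrome c, and 8 of its 9 rows were tested, none called. The median change was -0.18, with 6 of the 8 negative, and the same 6 (75%) were lower within both replicate numbers. Of all tested genes 27.4% were lower within both, and of the 926 with short intervals 44.6%. Cyc1, cytochrome c1, which hands the electron on, had 128 and 111 CPM with forced activity alone and 112 and 79.5 CPM under sleep restriction (log2 change -0.31, SE 0.23). Its groups overlap, and without sleep restriction 2 the change was -0.10. Uqcrfs1, the Rieske iron-sulfur protein, had 142 and 135 CPM against 131 and 122 CPM without overlap (log2 change -0.12, SE 0.20). Uqcrh, the hinge protein, had 106 and 114 CPM against 95.96 and 89.2 CPM, also without overlap (log2 change -0.23, SE 0.21). The spread within a group was wide for Uqcr10, a small subunit, with 57.1 and 39.7 CPM against 45.9 and 27.2 CPM (log2 change -0.33, SE 0.30). Its groups overlap, and the change was -0.73 without sleep restriction 1 and -0.03 without sleep restriction 2.

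The 2 positive changes in complex III were those of Uqcrq and Uqcrc2. Uqcrq, a small accessory subunit, had 228 and 147 CPM against 209.8 and 209.5 CPM (log2 change 0.16, SE 0.24). Its forced activity 2 value alone stands below the other libraries. Uqcrc2, a core protein, had 176 and 145 CPM against 168 and 180.4 CPM (log2 change 0.12, SE 0.21), and its groups overlap. Cycs, cytochrome c itself, had 81.9 and 78.01 CPM against 81.6 and 109 CPM (log2 change 0.23, SE 0.23). Sleep restriction 2 alone was high, and without it the change of Cycs was 0.01. The second Cycs row, with an interval of 318 bases, held at most 2.1 counts in a library.

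Complex IV reduces oxygen to water, and 12 of its 22 rows were tested with a median change of -0.04 and 8 negative, none called. All 12 were lower under sleep restriction in replicate 1 and 5 of 12 in replicate 2. Among all 4986 tested genes 2462 and 2464 were lower, and among the 926 with short intervals 617 and 597. Forced activity 1 was the highest library for 7 of the 12. Cox4i1, the liver form of the largest nuclear subunit, had 373 and 310.4 CPM with forced activity alone and 336 and 275 CPM under sleep restriction (log2 change -0.16, SE 0.21). Its groups overlap, and without forced activity 1 the change was -0.02. Cox5a, a nuclear subunit on the matrix side, had 108 and 107 CPM against 100.4 and 85.4 CPM without overlap (-0.20, SE 0.21, and -0.09 without sleep restriction 2). Ndufa4, named after complex I but placed in complex IV by structural work, had 278 and 279 CPM against 253 and 264 CPM, again without overlap (log2 change -0.11, SE 0.20). Cox7b had 201 and 171 CPM against 195 and 259.9 CPM (log2 change 0.29, SE 0.22), with sleep restriction 2 alone high and a change of 0.07 without it. Cox7a2l, the supercomplex factor, had 83.8 and 84.3 CPM against 69.2 and 64.02 CPM without overlap (log2 change -0.31, SE 0.22).

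Several complex IV subunits have one gene used in most tissues and another used in heart and skeletal muscle, and of the pairs listed here the form known from liver was the one with counts. Cox6a1 had 227 and 199 CPM against 220.4 and 219 CPM (log2 change 0.04, SE 0.20), whereas Cox6a2, the muscle form, was at 0 in every library. Cox8a had 148 and 79.9 CPM against 131 and 87.3 CPM (log2 change -0.05, SE 0.30), where replicate 1 was the higher library in both groups, and its muscle partner Cox8b was at 0. Cox6b1 had 67.4 and 58.9 CPM against 63.6 and 60.1 CPM (log2 change -0.02, SE 0.23), and the testis form Cox6b2 held at most 1 count. Cox7a2 had 94.9 and 79.3 CPM against 85.1 and 98.9 CPM (log2 change 0.08, SE 0.22). Its muscle partner Cox7a1 was not analysed here. Cox4i2, a lung form of Cox4i1, and Ndufa4l2, a hypoxia-induced relative of Ndufa4, were also at 0. Since genes used by every cell are also listed at 0 in this table, these zeros are given only as listed and do not measure how little of an isoform was present. Groups overlap in the 4 tested liver forms named in this paragraph.

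Complex V turns the proton gradient into ATP, and 15 of its 19 rows were tested, 12 of them negative, with a median of -0.07 and none called. These 12 are 80%, against 47.6% of all tested genes and 67.6% of the 926 with short intervals. After the running median along interval length was subtracted, 8 of the 15 were negative. The catalytic head was close between groups. Atp5b, its beta subunit, which carries the catalytic sites, had 1476 and 1234 CPM with forced activity alone and 1393 and 1247 CPM under sleep restriction (log2 change -0.04, SE 0.20). Atp5a1, the alpha subunit, had 541 and 395 CPM against 532 and 411 CPM (log2 change 0.01, SE 0.23). For both, the replicate 1 libraries are above the replicate 2 libraries whichever group they belong to. In the central stalk, which turns inside the head, Atp5c1 had 231 and 206 CPM against 209 and 194 CPM (log2 change -0.11, SE 0.20), and its groups overlap. Atp5d, the delta subunit of the stalk, had 133 and 97.3 CPM against 112 and 67.9 CPM (log2 change -0.33, SE 0.27), with overlap. Its change was -0.73 without sleep restriction 1 and -0.03 without sleep restriction 2. Atp5e, the epsilon subunit, named after its values were seen because it completes the stalk, had 162 and 128 CPM against 151 and 138 CPM with overlap, and a log2 change of -0.00.

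The c-ring is the membrane rotor through which protons pass, and 3 genes encode one and the same mature subunit. All 3 had negative changes, with a median of -0.26, and none was called. Among the 499 tested genes with the shortest intervals, 69.5% were negative. After the running median along interval length was subtracted, all 3 c-ring genes stayed negative, with a median of -0.14. Atp5g3, at chr3:60811210-60813869, had 219.6 and 204 CPM with forced activity alone and 164 and 144 CPM under sleep restriction, without overlap. Its log2 change was -0.45, SE 0.21, and -0.56 to -0.36 with each library left out in turn. Atp5g1 had 126 and 100.5 CPM against 109.7 and 75.7 CPM (log2 change -0.26, SE 0.24), where sleep restriction 1 was above forced activity 2. Its value is also the median of the ring, and it was -0.56 without sleep restriction 1 and -0.03 without sleep restriction 2. Atp5g2, named after its values were seen to complete the ring, had 195 and 185 CPM against 172 and 169 CPM (log2 change -0.16, SE 0.20). The peripheral stalk genes Atp5h, Atp5j and Atp5o, also named after their values were seen, lay between -0.12 and 0.04. Atp5sl, the assembly factor, had 27.04 and 17.3 CPM against 30.05 and 23.3 CPM (log2 change 0.30, SE 0.31), the largest positive change among the tested complex V rows, and 0.04 without forced activity 2.

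Of the 20 rows that were not tested, 10 were listed at 0 in every library: Ndufa1, Ndufb4l1, Cox6c1, Cox4i2, Cox6a2, Cox7b2, Cox8b, Ndufa4l2 and both rows of Atp5f1. Ndufa1 and Atp5f1 are subunits that every respiring cell uses, so they are given only as listed at 0. The other 10 held between 0 and 3 counts in a library. They include short second rows of Ndufa13, Uqcr10, Cycs, Cox6b1 and Cox7a2, the pseudogene Ndufv3-ps1, the testis genes Cox6b2 and Cox8c, and Atp5s and Atp5hl1. RefSeq names a pseudogene for 35 of the 70 tested genes, up to 8 for one gene, and reads of such copies could be assigned to either. The 35 had a median log2 change of -0.11, and the 35 without a named pseudogene had -0.08. The intervals of 15 tested members overlap another listed gene. The 11 listed subunits of mitochondrial DNA were at 0 in every library, so the nuclear and mitochondrial subunits of a complex could not be set side by side.

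Other genes around the respiratory chain were taken from lists of functions, and none of their genes was called. For assembly factors, which build the complexes, 17 of 42 listed symbols were tested, with a median log2 change of -0.09 and 10 negative. Ecsit, an assembly factor of complex I, had a log2 change of -0.26, and Tmem70, of complex V, had 0.24. For the citric acid cycle and pyruvate dehydrogenase, which supply NADH and succinate, all 17 were tested, with a median of 0.02 and 7 negative. Ogdh, the 2-oxoglutarate dehydrogenase of the cycle, had 72.1 and 57.4 CPM against 116 and 97.00 CPM (log2 change 0.68, SE 0.23) without overlap. Dlat, a subunit of pyruvate dehydrogenase, had a log2 change of 0.37. For electron entry at ubiquinone and coenzyme Q synthesis, 12 of 20 were tested, with a median of -0.06 and 8 negative. Etfdh, which brings in electrons from fatty acid oxidation, had a log2 change of 0.36, and Coq3, a coenzyme Q methyltransferase, had -0.48. For carriers and porins of the mitochondrial membranes, 13 of 16 were tested, with a median of -0.03 and 9 negative. Slc25a13, the aspartate and glutamate carrier citrin, had 0.41, and Slc25a10, the dicarboxylate carrier, had -0.16. Regulators of these genes and of mitochondrial DNA had 10 of 18 tested, a median of 0.03 and 5 negative. Among them Tfb2m, a mitochondrial transcription factor, had -0.64 and Ppara, a nuclear receptor for fatty acids, had 0.54. For protein import, 15 rows were tested, with a median of -0.17 and 9 negative. Tomm70a, a receptor of the outer membrane, had 0.53 and Timm13, a small chaperone between the membranes, had -0.55.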

How the data were processed

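Per the labels' protocols, TRIzol-extracted liver RNA was taken to messenger RNA, fragmented, and made into Illumina libraries with PCR. The submitters' processing notes name CASAVA, STAR 2.4.1d and rn6. Which program counted the reads is not stated there. Estimated counts per gene, in steps of 0.1 and with nearly equal totals per library, are the unit of the single table the authors deposited. In sleep restriction 2 all values but 1 were whole, and in the others over 10000 values were not, so the columns were not made alike.

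After rounding to whole numbers, the whole table was tested with edgeR 4.0.16 in R 4.3.3 (TMM factors, filterByExpr with a minimum count of 10, robust quasi-likelihood fit, Benjamini-Hochberg adjustment over 4986 genes, threshold 0.05). Log2 changes are shrunken by a prior count of 2, and their SE was calculated back from the F statistic. CPM are unrounded values scaled by total and TMM factor. DESeq2 1.42.0, limma 3.58.1 (voom), other factors, filters, a replicate block and leaving out each library were alternatives. The test was tried on simulated data. Promoters are RefSeq's for GRCr8, and 83 of 84 symbols matched, 17 through an older symbol. Levels were not compared between genes, since no transcript lengths were used here. Named members are, per complex, the 3 with the most counts and the 3 with the smallest unadjusted p, the 3 lowest and 3 highest log2 changes of all, isoform pairs, and genes at 0, and per list of other genes the 2 with the smallest p. Not every gene that this rule names is reported here. Members, lists and this rule were chosen with earlier results of these data known.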

Additional observations from a re-analysis of the deposited data

How the results depend on the processing

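Under the 12 refits, 0 members were called, with a smallest adjusted p of 0.648 or more (edgeR, DESeq2 or limma-voom). The members' median log2 change was -0.14 to -0.11 under other count models, factors and filters, and -0.19 to -0.05 with each library left out in turn, lowest without forced activity 2 and highest without forced activity 1. The count of genes called was 1, RT1-A2. It was 2 with DESeq2 (RT1-A2 and Hhex), 5 with no gene filter (RT1-A2, Rgs3, Dusp1, Igkc and Map1b), and 0 without robust estimation. With any 1 library left out, RT1-A2 was no longer called, though such a fit has a lone library in a group. The leave-one-out medians were -0.24 to -0.05 for complex I, -0.17 to -0.089 for complex II, -0.30 to -0.05 for complex III, -0.15 to 0.021 for complex IV and -0.16 to -0.057 for complex V. Cycs, the tested cytochrome c gene, gave 0.013 to 0.41, and the cytochrome c median was -0.19 with no gene filter, where its low second row also counts. Of 396 refits of 33 named members, 377 kept their sign and side of the threshold and 19 changed sign. Atp5a1 was -0.0068 with upper-quartile factors, -0.020 with no gene filter and -0.025 at a filter of 5 CPM in 2 libraries. The other 16 came from leaving out 1 library, over which values ranged from -0.20 to 0.25 for Atp5a1, -0.17 to 0.10 for Atp5b, -0.057 to 0.15 for Cox6a1, -0.10 to 0.061 for Cox6b1, -0.047 to 0.20 for Cox7a2, -0.43 to 0.43 for Cox8a, -0.14 to 0.016 for Ndufa6, -0.19 to 0.017 for Ndufb9, -0.015 to 0.26 for Uqcrc2 and -0.13 to 0.50 for Uqcrq. The causes were not tested.

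With the replicate number as a block, 5 genes were called (RT1-A2, Rgs3, Igkc, Hhex and Cish), 0 of them members, and the members' median was -0.11 with 50 negative. The deviations of same-numbered libraries correlated at 0.206 over the tested genes, which with 2 pairs does not show a pairing. A lone library left in a group was taken to spread as the other group does. The median SE of a member's change was 0.23, and 45 of 70 changes were smaller than their own SE.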
